A study of Rattus norvegicus with 18 samples.

Results

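The genes described here are 7 components of the inflammasome and pyroptosis route in kidney: Txnip, Nlrp3, Pycard, Casp1, Gsdmd, Il18 and Il1b. They were taken by identifier from a deposited table of raw counts with 55335 gene identifiers, and all 7 were found and passed the filter on low counts, as did 19233 identifiers in total. The table covers 18 libraries of polyadenylated kidney RNA in 3 groups of 6 animals, which the labels give as rats. Controls (Ctrl) had ordinary feed and solvent by gavage. The diabetic nephropathy model (DN) was produced with a high-fat diet and an injection of STZ (streptozotocin, a toxin of insulin-producing cells). The treated group (Treat) consisted of model animals dosed orally with TSK, an agent known here by that abbreviation alone, at 500 mg/kg each day for 4 weeks. No strain, age or sex is stated, and the model group is not said to have received the solvent.

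The inflammasome is a cytosolic protein complex that senses danger signals and activates an inflammatory protease. In its best known form the sensor NLRP3 recruits the adaptor ASC (encoded by Pycard), and ASC clusters caspase-1. Caspase-1 cuts the precursors of the cytokines IL-1β and IL-18 into their active forms and cuts gasdermin D, whose fragment opens pores in the cell membrane and causes pyroptosis, an inflammatory form of cell death. TXNIP, the thioredoxin-interacting protein, is induced by glucose, binds thioredoxin and has been described as a partner of NLRP3. Nlrp3 and Il1b are mostly transcribed by myeloid cells after priming, whereas Il18 is made constitutively by epithelium, tubules of the kidney included. Much of the activity of this route is set by protein assembly and cleavage, which messenger RNA does not show.

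The identifiers in the table are those of mouse in Ensembl, and mouse builds are listed in the submitters' processing notes, although the labels name the rat. Levels are therefore compared within a gene and never between genes. The identifiers are not paired with gene names in the sources used here, so neither markers of kidney and immune cells nor further genes of the route were examined. In whole tissue, more cells of a type and more RNA per cell cannot be told apart. Library totals were 26312358 to 34140706 counts in Ctrl, 25505257 to 35275498 in DN and 22040987 to 28135824 in Treat. On the first principal component of all tested genes (40.5% of the variance), Ctrl library 4 (-59.8) lay near the other controls (-83.6 to -65.7). The DN and Treat libraries lay at 16.6 to 59.4 on it. On the second (10.6% of the variance), Ctrl library 4 (-54.2) and Treat library 1 (-78.8) lay apart from the other libraries (-25.2 to 26.8). Ctrl library 4 also sided with the DN and Treat libraries for 6 identifiers that separated the remaining 5 controls from all other libraries by at least 10-fold (in CPM + 0.1), a division found for 1 identifier with Ctrl library 1 in its place and for none with any other control. Results against the controls are given with this in view.

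In the DN kidneys the adaptor Pycard and the cytokine Il18 were higher than in the controls, by 1.38-fold and 1.59-fold. These were 2 of the 7 genes called higher, and none was called lower. Over all genes tested, 32.2% were called, 16.9% higher and 15.3% lower (edgeR quasi-likelihood test, Benjamini-Hochberg adjusted p below 0.05). With 7 genes, 2 calls are near this background, and nothing about the 7 genes as a group is read from them. The fitted log2 fold changes of all 7 genes were above 0, against 50.8% of all genes tested, with a median of 0.52 against 0.01 over all genes. With signs ignored, the median was 0.52 for the 7 genes against 0.30 over all genes. The 7 genes were chosen with earlier results of these data known, so this shared direction is a description and not independent support. The 5 genes that were not called had log2 fold changes between 0.30 and 0.85.

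In the treated kidneys none of the 7 genes was called different from DN, and 2 of them had an unadjusted p below 0.05: Pycard, with a log2 difference of 0.29, and Il1b, with one of -0.71. Over all genes this comparison called 1.39%, of which 0.536% were higher and 0.858% lower. For each of the 7 genes the Treat and DN libraries overlapped, and for 1.8% of all genes they did not. The median over the 7 genes was -0.07, against -0.01 over all genes, with 3 values above 0 and 4 below. DESeq2 also called none of the 6 for which it gave an adjusted p, Nlrp3 being the one without. With library totals as the scaling 1 of 7 was called, Pycard at 0.43 (adjusted p = 0.0390), and that scaling turned the balance of all calls from 38.4% to 84.4% higher.

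Against the controls, the treated kidneys were higher in Pycard by 1.69-fold, in Casp1 by 1.58-fold and in Il18 by 1.41-fold. They were 3 of 7 genes called higher, with none lower, where 44.9% of all genes tested were called, 23% higher and 21.9% lower. All 7 fitted log2 fold changes were above 0, against 51.7% of all genes, with a median of 0.44 against 0.02. With signs ignored, the median was 0.44 for the 7 genes against 0.37 over all genes. The way the 7 genes were chosen limits this shared direction in the same manner. Both comparisons with Ctrl use the same control libraries, so their values for a gene are not independent.

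**Figure D1:**
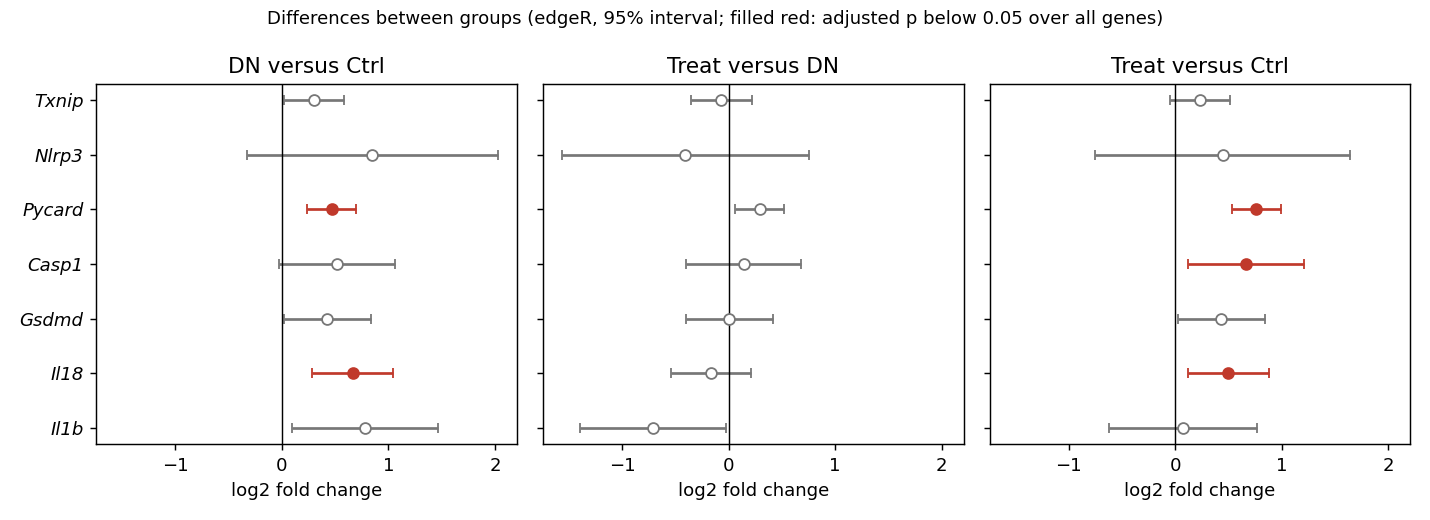
Log2 fold changes of the 7 genes in the 3 comparisons, with 95% intervals from the edgeR fit of all 18 libraries; filled red points have an adjusted p below 0.05 over all genes tested. Pycard and Il18 are called in DN versus Ctrl, none in Treat versus DN, and Pycard, Casp1 and Il18 in Treat versus Ctrl.

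The stretches upstream of the 3 genes with a call are printed next, since these are the genes for which a difference passed the test: Pycard and Il18 in DN and in Treat against Ctrl, and Casp1 in Treat against Ctrl. They are the 250 bases before the annotated start in the rat reference (RefSeq, build GRCr8), 5′ to 3′ on the gene's strand, at chr1:192033420-192033669 (minus strand) for Pycard, chr8:59801822-59802071 (plus strand) for Il18 and chr8:10872580-10872829 (plus strand) for Casp1. The counted identifiers are those of mouse, so these rat stretches are not from the annotation that was counted. Capitals mark matches to any of 6 motifs, searched on both strands.
Pycard: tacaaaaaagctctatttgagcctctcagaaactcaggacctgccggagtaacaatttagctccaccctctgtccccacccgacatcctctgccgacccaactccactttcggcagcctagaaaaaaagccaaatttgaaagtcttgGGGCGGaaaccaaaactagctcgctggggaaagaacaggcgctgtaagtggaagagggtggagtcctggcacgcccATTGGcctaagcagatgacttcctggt
Il18: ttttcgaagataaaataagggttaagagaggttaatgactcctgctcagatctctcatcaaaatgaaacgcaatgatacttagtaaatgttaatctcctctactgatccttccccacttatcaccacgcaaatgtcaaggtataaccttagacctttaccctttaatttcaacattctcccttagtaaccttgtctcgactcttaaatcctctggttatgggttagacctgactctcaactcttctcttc
Casp1: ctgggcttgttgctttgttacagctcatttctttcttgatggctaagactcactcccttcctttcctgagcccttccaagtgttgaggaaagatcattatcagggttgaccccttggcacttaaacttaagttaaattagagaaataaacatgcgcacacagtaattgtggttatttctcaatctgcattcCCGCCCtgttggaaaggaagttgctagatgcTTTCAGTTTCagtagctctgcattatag
The motifs were the TATA box as TATAAA, the core of GC boxes as GGGCGG, the CCAAT box, the E-box as CACGTG, the core of interferon response elements (GAAA, then any 2 bases, then GAAA again) and the NF-kB consensus. Pycard held GGGCGG from 103 to 98 bases before the start and CCAAT, on the reverse strand, from 27 to 23 bases before it. Casp1 held GGGCGG and the interferon response core, both on the reverse strand, the latter from 28 to 19 bases before the start. Il18 held none of the 6 in this window. Of 33469 rat promoter windows of this length, 30.5% held GGGCGG, 34.0% CCAAT, 12.9% TATAAA, 5.59% CACGTG, 3.41% the interferon response core and 3.54% the NF-kB consensus. Among the 5 of 7 genes in the promoter table, Il1b held TATAAA, and neither CACGTG nor the NF-kB consensus was found in any. Txnip and Gsdmd were not in it. The search describes letters in a reference sequence, not binding.

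**Figure D2:**
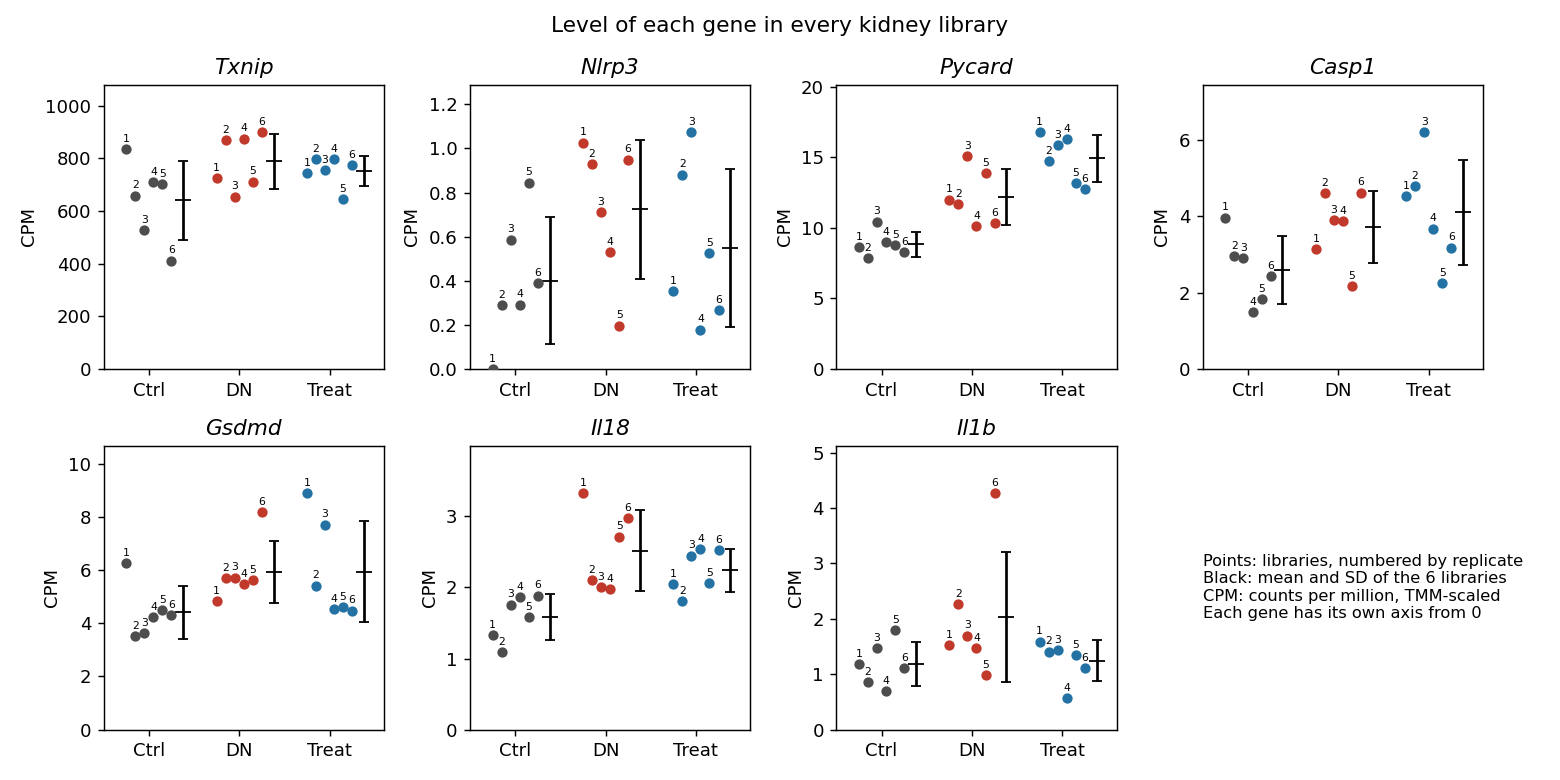
Level (CPM, scaled with TMM factors) of each gene in every library, numbered by replicate, with the mean and SD of each group of 6 in black; each gene has its own linear axis from 0. The 6 Il18 points of DN lie above the 6 of Ctrl, the 6 Pycard points of Treat lie above the 6 of Ctrl, and DN library 6 is far above the other libraries for Il1b.

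Txnip (ENSMUSG00000038393), which links glucose to the thioredoxin system, was deeply covered, with 13738 to 29714 counts per library. It ranged from 411 to 836 CPM in Ctrl (median 681), from 654 to 899 CPM in DN (median 798) and from 645 to 797 CPM in Treat (median 765). The groups overlapped, although 5 of the 6 DN libraries lay above the control median. Group means were 641 ± 150, 789 ± 104 and 752 ± 56.7 CPM (SD, n = 6 each). The difference between DN and Ctrl was 0.30 on the log2 scale (SE 0.14, 95% interval 0.02 to 0.58, adjusted p = 0.0981) and was not called. The control spread mattered for this: Ctrl library 1 stood highest and Ctrl library 6 lowest of the controls. Without Ctrl library 1 the log2 difference was 0.39 and called (adjusted p = 0.0345), without Ctrl library 6 it was 0.20 (adjusted p = 0.207), and limma voom with library quality weights called it at 0.43 (adjusted p = 0.0239, with 0.0239 to 0.777 across its alternatives). The Treat minus DN difference was -0.07 (95% interval -0.35 to 0.22, adjusted p = 0.848), an interval that leaves room for a level in Treat between 0.78 and 1.16 times that in DN. Its sign depended on scaling, and with no TMM factor it was 0.06. Treat stood 0.23 above Ctrl (95% interval -0.05 to 0.52, adjusted p = 0.175).

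Nlrp3 (ENSMUSG00000032691), the sensor, was close to the detection limit of these libraries, with 0 to 32 counts in a library. In Ctrl it ranged from 0 to 0.844 CPM (median 0.34), in DN from 0.197 to 1.03 CPM (median 0.819) and in Treat from 0.178 to 1.07 CPM (median 0.439). Ctrl library 1 had no count of it, and each of the 3 groups held both low and high libraries. The log2 difference was 0.85 between DN and Ctrl (SE 0.56, 95% interval -0.33 to 2.03, adjusted p = 0.259), -0.41 between Treat and DN (-1.56 to 0.75, adjusted p = 0.768) and 0.44 between Treat and Ctrl (-0.75 to 1.64, adjusted p = 0.551). No difference of Nlrp3 was called, and the interval for Treat against Ctrl reached from 0.594 to 3.12 times the control level. Its coefficient of variation between libraries was 72.2% in Ctrl, 43.7% in DN and 65.5% in Treat, while counting error by itself would give 29.3%, 21.7% and 26.1%.

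Pycard (ENSMUSG00000030793) encodes ASC, the adaptor that joins sensor and caspase. Its range was 7.85 to 10.4 CPM in Ctrl (median 8.69), 10.2 to 15.1 CPM in DN (median 11.9) and 12.8 to 16.8 CPM in Treat (median 15.3), from 239 to 489 counts per library. The medians of the 3 groups were thus ordered Ctrl, DN, Treat. DN and Ctrl overlapped in that Ctrl library 3 exceeded DN libraries 4 and 6. DN and Treat overlapped more. Means were 8.82 ± 0.893, 12.2 ± 1.96 and 14.9 ± 1.67 CPM (SD, n = 6 each). DN was 0.47 above Ctrl on the log2 scale (SE 0.11, 95% interval 0.24 to 0.70, adjusted p = 0.00346). Treat was 0.76 above Ctrl (SE 0.11, 95% interval 0.53 to 0.99, adjusted p = 3.44e-05), with no overlap between the 12 libraries, a separation seen for 24.7% of all genes in this comparison and for 11.5% in the upward direction.

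The Treat minus DN difference of Pycard was 0.29 (SE 0.11, 95% interval 0.06 to 0.52, adjusted p = 0.19), with all 6 treated libraries above the DN median and 3 of 6 above every DN library. It was not called with TMM factors. Its adjusted p was 0.039 to 0.372 across its alternatives, the lowest with library totals, and that scaling moved the median of all genes in this comparison by 0.13. Ctrl library 4 had 9.01 CPM of Pycard, inside the range of the other controls. A covariate for the other 5 controls leaves that library as the reference. The control side of this fit is then 1 library, assumed to vary like the other libraries, so calls lost or kept in it say little. The DN minus Ctrl difference kept its size (0.44) but had an SE of 0.22 and was not called (adjusted p = 0.253, with 0.000723 to 0.253 across its alternatives). The Treat minus Ctrl difference was 0.73 in that fit (SE 0.22, adjusted p = 0.0472, with 2.62e-09 to 0.0472 across its alternatives).

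Casp1 (ENSMUSG00000025888) encodes caspase-1, the protease that the complex activates. It ranged from 1.5 to 3.97 CPM in Ctrl (median 2.66), from 2.17 to 4.62 CPM in DN (median 3.89) and from 2.25 to 6.20 CPM in Treat (median 4.10), with 41 to 185 counts per library. The ranges overlapped widely. Ctrl library 4 held the lowest value of all libraries, and DN library 5 and Treat library 5 were the lowest of their groups. DN exceeded Ctrl by 0.52 on the log2 scale (SE 0.26, 95% interval -0.02 to 1.06, adjusted p = 0.132), which was not called. Treat exceeded Ctrl by 0.66 (SE 0.26, 95% interval 0.12 to 1.21, adjusted p = 0.0447), with 5 of 6 treated libraries above the control median.

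This call of Casp1 was narrow. It was lost in 17 of 29 alternative settings, and over all 29 the adjusted p was 0.0179 to 0.211. Leaving out Ctrl library 2, 3, 4, 5 or 6 lost it. So did leaving out DN library 1, 3 or 4, or Treat library 1, 2, 3 or 4. Without Ctrl library 4 the log2 difference was 0.54 (adjusted p = 0.0937), without Treat library 3 it was 0.50 (adjusted p = 0.128), and with Ctrl libraries 4 and 5 both left out it was 0.42 (adjusted p = 0.211). With Ctrl library 4 as the reference it was 1.46 (SE 0.52, adjusted p = 0.0811). Treat and DN differed by 0.14 (95% interval -0.40 to 0.68, adjusted p = 0.834).

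Gsdmd (ENSMUSG00000022575) encodes gasdermin D, the pore former cut by caspase-1. It ranged from 3.53 to 6.28 CPM in Ctrl (median 4.27), from 4.85 to 8.20 CPM in DN (median 5.66) and from 4.48 to 8.90 CPM in Treat (median 5.02). All 6 DN libraries lay above the control median, and 5 of 6 controls lay below the lowest DN library, the exception being Ctrl library 1. The DN minus Ctrl difference was 0.43 on the log2 scale (SE 0.20, 95% interval 0.02 to 0.84, adjusted p = 0.104). Without Ctrl library 1 it was 0.55 and called (adjusted p = 0.0400, with 0.04 to 0.491 across its alternatives). Without DN library 6, the highest of its group, it was 0.31 (adjusted p = 0.227). The difference between Treat and Ctrl was 0.43 (SE 0.20, adjusted p = 0.0816). It too was called without Ctrl library 1, at 0.56 (adjusted p = 0.0285), and with library totals, at 0.55 (adjusted p = 0.0415, with 0.0285 to 0.436 across its alternatives). In the other direction, it was 0.28 without Treat library 1 (adjusted p = 0.228) and 0.34 without Treat library 3 (adjusted p = 0.186). The Treat minus DN difference was 0.005 with a 95% interval of -0.40 to 0.41 (adjusted p = 0.993). In Treat, libraries 1 and 3 stood at 8.90 and 7.71 CPM and the other 4 at 4.48 to 5.42 CPM.

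Il18 (ENSMUSG00000039217) encodes the precursor of interleukin-18, a cytokine released after cleavage by caspase-1. It ranged from 1.09 to 1.88 CPM in Ctrl (median 1.67), from 1.97 to 3.33 CPM in DN (median 2.41) and from 1.81 to 2.53 CPM in Treat (median 2.26), with 34 to 94 counts per library. All 6 DN libraries lay above all 6 controls, while DN and Ctrl were separated for 16.2% of all genes, 8.34% in the upward direction. Means were 1.59 ± 0.318, 2.52 ± 0.572 and 2.24 ± 0.306 CPM (SD, n = 6 each). DN exceeded Ctrl by 0.66 on the log2 scale (SE 0.18, 95% interval 0.29 to 1.04, adjusted p = 0.00922). This call held in 28 of 29 alternatives, among them all 18 that left out 1 library of any group. The exception was the fit with Ctrl library 4, at 1.86 CPM the second highest control, as the reference, where the difference was 0.43 with an SE of 0.35 (adjusted p = 0.494, with 0.00399 to 0.494 across its alternatives).

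Treat exceeded Ctrl in Il18 by 0.50 (SE 0.18, 95% interval 0.12 to 0.88, adjusted p = 0.0322), with 5 of 6 treated libraries above every control. The call was lost with no filter (adjusted p = 0.058), when Ctrl library 1, 2 or 5 or Treat library 3, 4 or 6 was left out (log2 differences 0.41 to 0.50, adjusted p 0.051 to 0.0794), and with Ctrl library 4 as the reference, where the difference was 0.27 (adjusted p = 0.651, with 0.0139 to 0.651 across its alternatives). Treat and DN differed by -0.17 (95% interval -0.54 to 0.21, adjusted p = 0.689), so the order of the means was Ctrl, Treat, DN, with the latter pair not separated beyond their spread.

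Il1b (ENSMUSG00000027398) encodes the precursor of interleukin-1β, which priming induces in myeloid cells. It ranged from 0.693 to 1.79 CPM in Ctrl (median 1.15), from 0.984 to 4.27 CPM in DN (median 1.61) and from 0.571 to 1.59 CPM in Treat (median 1.38), with 16 to 135 counts per library. DN library 6 alone reached 4.27 CPM, and the next DN library was at 2.26 CPM. All 6 treated libraries lay below the DN median, the highest narrowly (1.59 against 1.61 CPM), and the same held for Txnip. Means were 1.19 ± 0.400, 2.03 ± 1.17 and 1.25 ± 0.366 CPM (SD, n = 6 each). DN exceeded Ctrl by 0.78 on the log2 scale (SE 0.33, 95% interval 0.09 to 1.47, adjusted p = 0.0763), and Treat stood 0.71 below DN (SE 0.33, 95% interval -1.40 to -0.02, adjusted p = 0.291). Neither was called.

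Both Il1b values leaned on DN library 6. Without it the DN minus Ctrl difference was 0.42 (adjusted p = 0.266) and the Treat minus DN difference -0.35 (adjusted p = 0.636, with 0.155 to 0.636 across its alternatives). In the other direction, the DN minus Ctrl difference was called without Ctrl library 5 at 0.93 (adjusted p = 0.04996) and without DN library 5 at 0.92 (adjusted p = 0.0417, with 0.0417 to 0.266 across its alternatives). Treat and Ctrl differed by 0.07 (95% interval -0.62 to 0.77, adjusted p = 0.879).

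**Figure D3:**
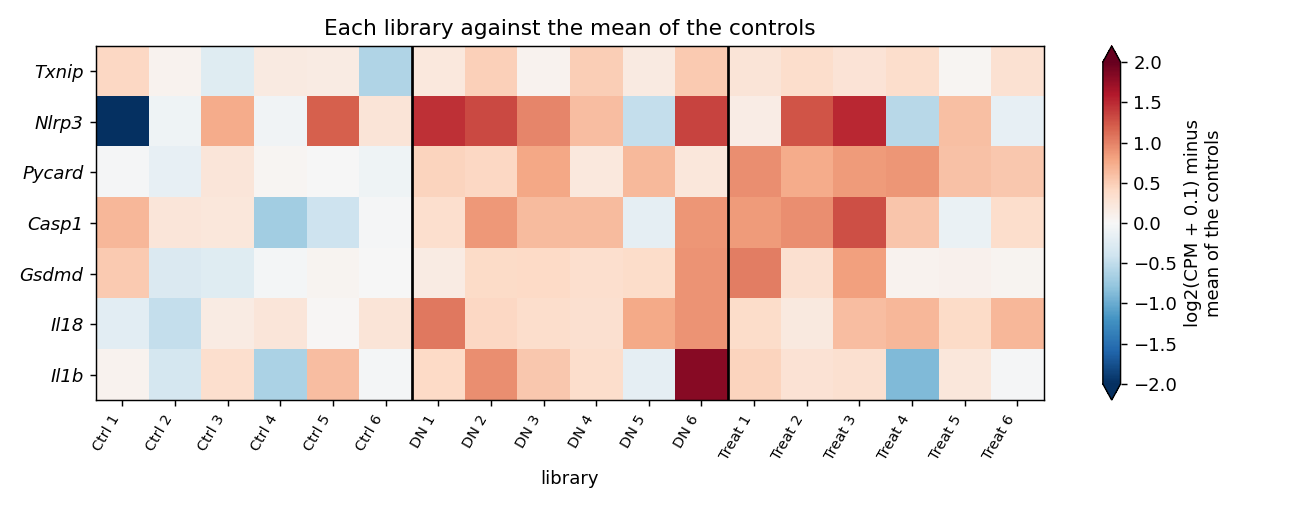
Heat map of log2(CPM + 0.1) in each library minus the mean of the controls, by gene and library; red is above and blue below the control mean, and black lines separate the groups. DN library 6 is red for all 7 genes and darkest for Il1b, while Pycard is above the control mean in all 12 DN and Treat libraries.

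The libraries of a group did not share 1 pattern over the 7 genes. DN library 6 was the highest of its group for 4 genes (Txnip, Casp1, Gsdmd and Il1b), and DN library 5 the lowest for 3 (Nlrp3, Casp1 and Il1b), although it was above the DN median for Pycard and Il18. Ctrl library 1 was the highest control for Txnip, Casp1 and Gsdmd and the lowest for Nlrp3. Treat library 3 was above its group's median for 6 of 7 genes and Treat library 5 for 1.

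The spread between libraries exceeded counting error to a different degree for each gene. For Txnip the coefficient of variation was 23.5% in Ctrl, 13.2% in DN and 7.54% in Treat, with counting error below 1% in each. For Pycard it was 10.1% to 16.1% against 4.98% to 6.24% from counting. For Il18 it was 20.0%, 22.7% and 13.7% against 14.7%, 11.7% and 12.8%. In Treat the spread of Il18 was thus close to counting error. These counting errors assume that each count is an independent molecule.

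**Figure D4:**
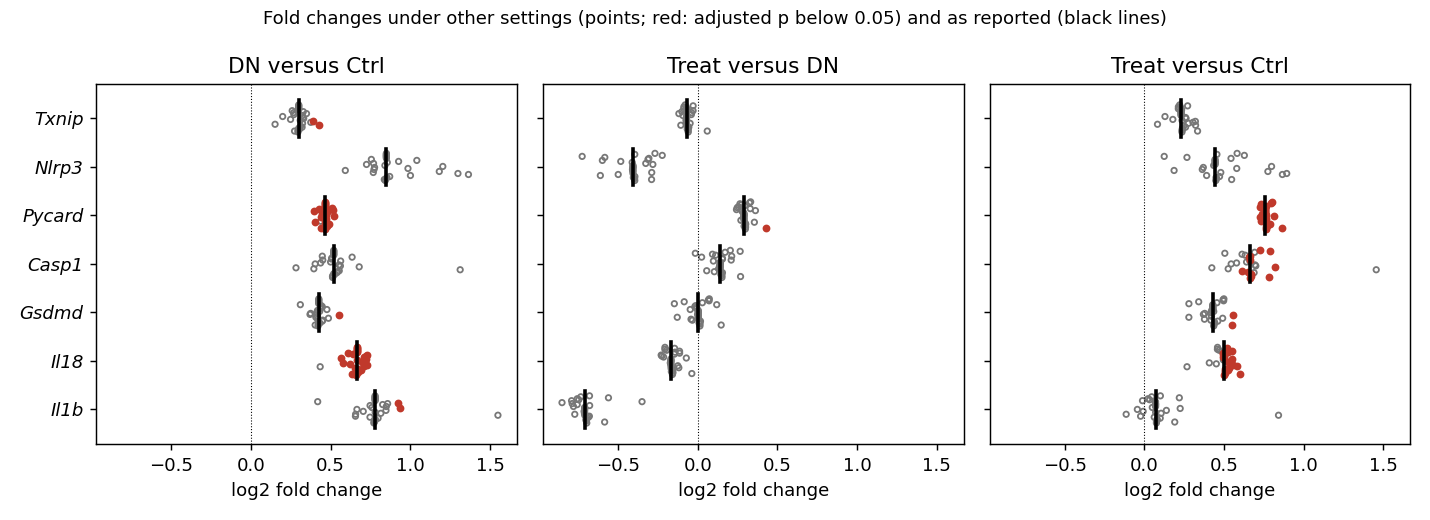
Log2 fold change of each gene under every alternative setting (points, red where the adjusted p is below 0.05) and as reported (black lines) in the 3 comparisons. Pycard is red almost throughout in both comparisons with Ctrl and Il18 in DN versus Ctrl, whereas Casp1 in Treat versus Ctrl is divided between called and not called.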

How the data were processed

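The authors deposited whole-number read counts for each gene and library, without scaling. GRCm38 and mm10 are the builds listed in the submitters' processing notes. The aligner, the counter and the strand handling were not given in the sources used here. Columns were tied to samples by library name and grouped by title. The 7 genes and all lists were chosen with earlier results of these data known. All 7 are named in every comparison, by the identifiers of the rule that chose them. Of the 55335 identifiers, 0 were found in the rat gene table, so the 78 pathway symbols, the cell markers and genes of like pattern could not be matched.

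Counts were tested in R 4.3.3 with edgeR 4.0.16: filterByExpr, TMM factors, glmQLFit and glmQLFTest over all 18 libraries with no covariate, and Benjamini-Hochberg adjustment over 19233 genes (called below 0.05). Standard errors come from the F statistics, and 95% intervals use the test's degrees of freedom. The code was tested on simulated data. Alternatives were DESeq2 1.42.0, limma voom (limma 3.58.1), other scalings and filters, fewer libraries, the replicate number as a block, and a covariate for the controls. The p-values set each group difference against the spread between animals of 1 series.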

Additional observations from a re-analysis of the deposited data

Results flagged for a closer look

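In 3 of the 21 combinations of gene and group, 1 library lay farther from the rest than Dixon's criterion for 6 values allows, measured as the ratio of gap to range. About 1 in 20 is flagged by chance. Gsdmd stood at 8.20 CPM in DN library 6, where the next DN library had 5.72 CPM (ratio 0.741), and at 6.28 CPM in Ctrl library 1, where the next control had 4.50 CPM (ratio 0.644). Txnip stood at 645 CPM in Treat library 5, where the next treated library had 745 CPM (ratio 0.656).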

How the results depend on the processing

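The directions of all 7 genes in DN versus Ctrl held in every alternative run. With Ctrl library 4 as the reference the control side is 1 library, assumed to vary like the other libraries, and standard errors are larger (for Pycard in DN versus Ctrl 0.22, from 0.11). In that fit 0 of 7 were called there and 1 of 7 in Treat versus Ctrl, with 986 and 1862 of all genes called, from 6202 and 8629, and these counts do not show whether the results depend on the other controls. With single libraries left out, 2 to 4 of 7 were called in DN versus Ctrl, 0 in Treat versus DN and 1 to 3 in Treat versus Ctrl. With no filter 1 of 7 was called in Treat versus Ctrl (more genes tested), and with library totals 1 of 7 in Treat versus DN. The 268 genes called in Treat versus DN became 775 with library totals (84.4% of them higher, against 38.4%), 799 with DESeq2, 119 with no filter, 116 with only the libraries compared, 737 with limma voom, 593 without Ctrl library 4 and Treat library 1, and 97 to 446 with single libraries left out. Apart from what construction shows, the cause was not tested.

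Signs turned only for small, uncalled differences. In Treat versus DN, Txnip was 0.0602 with library totals. Gsdmd was -0.0415 with limma voom, -0.13 without Ctrl library 4 and Treat library 1, and -0.15 to 0.12 with single libraries left out, and Casp1 was -0.0147 to 0.27. In Treat versus Ctrl, Il1b was -0.0237 with limma voom, -0.11 without Ctrl library 4 and Treat library 1, and -0.044 to 0.225 with single libraries left out. The filter of CPM above 1 in 6 libraries removed Nlrp3.

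Replicate numbers are shared by the groups, but same-numbered libraries did not vary together (correlation of deviations across genes -0.189 to 0.185, above 0.1 in 2 of 18 pairs). With the replicate block no call of the 7 genes changed, Gsdmd in Treat versus DN was -0.0333, and 117 genes were called in Treat versus DN. The planned counts over pathway lists were not run, since no symbol could be matched.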
